A study of Mus musculus with 4 samples.

Results

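Regulatory DNA on both sides of *Wwtr1*, the gene of TAZ, and of *Yap1*, the gene of YAP, was described from ATAC-seq peaks, the stretches of open chromatin where a transposase inserts into DNA. All peaks of 4 peak lists were taken whose summit lay within 250 kb of either gene body, with the gene body and 3 kb on each side of it left out. This gave 186 of 489558 peaks, 95 at *Wwtr1* and 91 at *Yap1*. Peaks of different lists were joined into 1 region where they overlapped by at least 1 base, which gave 134 of 357570 regions, 65 at *Wwtr1* and 69 at *Yap1*. The lists came from 4 untreated mouse cell lines of small cell lung cancer (SCLC), with 1 library per line. All 4 lines derive from lung tumors of the *RP* mouse (Rb1 L/L, Trp53 L/L, mixed C57Bl/6, Balb-c and S129 background), in which both tumor suppressors are deleted by Cre given to the airways with an adenovirus. Cells of SMC lines 1 and 2 were sorted as NCAMhi CD44lo/- and grow in suspension, and those of non-SMC lines 1 and 2 were sorted as NCAMlo CD44hi and grow attached. They were lines kept in culture, and the same number marks a line pair in the labels, for which no shared mouse is stated. With 2 libraries per type, the exact two-sided permutation test cannot go below p = 0.33, so the SD between lines of a type is the measure of error.

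TAZ and YAP are coactivators without a DNA-binding domain of their own. They switch on target genes mainly through TEAD factors, and the kinase cascade of the Hippo pathway keeps them out of the nucleus. In lung cancers of neuroendocrine type both are usually low, while attached cells of mesenchymal type usually express them. A gene can be controlled by elements far outside its body, and a flank also holds the promoters of neighboring genes, so a flank peak is not thereby an element of *Wwtr1* or *Yap1*.

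Both genes are on the minus strand, so their upstream flanks have the higher coordinates. In mm10, *Wwtr1* (ENSMUSG00000027803.14) is at chr3:57455649-57575910, with flanks at chr3:57205649-57452648 (downstream) and chr3:57578911-57825910 (upstream). *Yap1* (ENSMUSG00000053110.13) is at chr9:7931999-8004596, with flanks at chr9:7681999-7928998 (downstream) and chr9:8007597-8254596 (upstream). A region was called non-SMC-only when it had a peak in each of the non-SMC lines but in no SMC line, SMC-only in the opposite case, and shared by all when each of the 4 libraries had one. The strength of a peak is its fold enrichment over the local background. It depends on the depth of its library, so it is also given as a percentile among all peaks of the same list.

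The strongest non-SMC-only regions of *Wwtr1* and its distal region shared by all 4 libraries are shown first, each from 100 bases before to 100 bases after a summit, on the plus strand of GRCm38. Capitals mark motifs searched on both strands, namely TGAGTCA for AP-1, GGAATG for TEAD factors, TGTGGT and also TGCGGT for RUNX factors, ACAAAG and also ACAATG for SOX factors, CAGCTG as an E-box and TTGGCA for NFI factors. The first, chr3:57411730-57411930 between *Tm4sf1* and *Tm4sf4*, holds TGAGTCA with its first base 9 bases before the summit. The second, chr3:57277546-57277746 beyond the 3′ end of *Tm4sf1*, holds a pair of TGTGGT that share a base. The third, chr3:57344328-57344528, lies between genes, is open in both cell types and holds none of these motifs.
Wwtr1 non-SMC-only 1: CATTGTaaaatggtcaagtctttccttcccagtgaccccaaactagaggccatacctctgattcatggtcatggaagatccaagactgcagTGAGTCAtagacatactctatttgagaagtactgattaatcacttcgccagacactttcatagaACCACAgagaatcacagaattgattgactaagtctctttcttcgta
Wwtr1 non-SMC-only 2: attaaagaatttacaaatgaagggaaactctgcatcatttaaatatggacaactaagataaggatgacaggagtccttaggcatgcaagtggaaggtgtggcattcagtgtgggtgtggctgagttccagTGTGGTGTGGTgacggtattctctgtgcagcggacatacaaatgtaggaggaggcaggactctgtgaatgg
Wwtr1 all 4 libraries: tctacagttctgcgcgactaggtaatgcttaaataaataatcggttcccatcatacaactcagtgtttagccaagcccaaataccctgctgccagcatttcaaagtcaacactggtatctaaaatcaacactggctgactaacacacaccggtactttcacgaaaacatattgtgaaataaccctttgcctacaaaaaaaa

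For *Yap1* the 2 strongest non-SMC-only regions, its SMC-only region and a promoter shared by all are shown in the same way. The first, chr9:8139575-8139775 upstream of *Cep126*, holds an E-box 5 bases after the summit and a pair of NFI motifs. The second, chr9:8104354-8104554 in an intron of *Cep126*, holds a TEAD motif on the minus strand, 6 bases after the summit, and a SOX motif. The SMC-only region, chr9:8035670-8035870 in an intron of *Cfap300*, holds 2 CAGCTG. The shared region, chr9:8134395-8134595 just outside the 5′ end of *Cep126*, is 68.7% G and C and holds none of the motifs.
Yap1 non-SMC-only 1: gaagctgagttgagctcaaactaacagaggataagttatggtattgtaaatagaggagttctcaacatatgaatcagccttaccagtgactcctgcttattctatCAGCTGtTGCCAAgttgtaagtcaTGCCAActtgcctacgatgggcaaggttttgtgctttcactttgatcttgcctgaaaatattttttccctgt
Yap1 non-SMC-only 2: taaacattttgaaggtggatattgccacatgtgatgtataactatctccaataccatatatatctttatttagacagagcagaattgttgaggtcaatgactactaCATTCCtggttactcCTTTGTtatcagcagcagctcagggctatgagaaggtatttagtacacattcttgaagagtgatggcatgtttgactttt
Yap1 SMC-only: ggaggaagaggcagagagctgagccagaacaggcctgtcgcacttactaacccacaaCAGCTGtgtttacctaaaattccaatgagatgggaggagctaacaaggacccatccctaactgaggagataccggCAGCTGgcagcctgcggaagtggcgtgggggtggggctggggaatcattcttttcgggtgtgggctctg
Yap1 all 4 libraries: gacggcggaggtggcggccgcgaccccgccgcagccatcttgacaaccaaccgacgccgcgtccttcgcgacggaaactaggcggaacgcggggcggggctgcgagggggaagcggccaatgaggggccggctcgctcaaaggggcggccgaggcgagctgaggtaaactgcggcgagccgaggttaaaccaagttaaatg

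On chromosomes 1 to 19, X and Y the lists of SMC lines 1 and 2 held 91057 and 153954 peaks and those of non-SMC lines 1 and 2 held 115837 and 128710. The median peak had a pileup of 5 to 10 fragments at its summit. The genome-wide background, which rises with depth, was 0.456 and 1.54 fragments in SMC lines 1 and 2 and 1.49 and 0.639 in non-SMC lines 1 and 2. Each type thus had a shallow and a deep library, and the pairs of like background were SMC line 1 with non-SMC line 2 and SMC line 2 with non-SMC line 1. Of all peaks, 42.8% to 72.2% had a q-value up to 0.05, the highest share being in non-SMC line 1. Neuroendocrine *Chga* and epithelial *Epcam* had promoter peaks in both SMC lines and 0 in both non-SMC lines. *Cd44* had 1 promoter peak in each non-SMC line, with -log10 q of at least 5. SMC line 1 had 0 there, and SMC line 2 had 2 weaker ones below that threshold, at percentiles up to 43.1. Among other neuroendocrine markers *Ncam1* had promoter peaks in all 4 libraries, as did *Syp* and the mesenchymal marker *Vim*, *Insm1* lacked one in non-SMC line 2 and *Neurod1* in SMC line 1. Non-SMC line 1 had 1 promoter peak of the leukocyte gene *Ptprc*, both non-SMC lines had 1 of the endothelial gene *Pecam1*, and the SMC lines had 0 of either. The part of other cells in the results was not tested.

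The flanks of *Wwtr1* held more peaks in both non-SMC lines than in either SMC line. There were 5 peaks in SMC line 1 and 22 in line 2, and 36 in non-SMC line 1 and 32 in line 2. The groups did not overlap, but SMC line 2 lay closer to the non-SMC lines than to SMC line 1. The means were 34 ± 2.83 (SD, n = 2) in non-SMC and 13.5 ± 12.0 in SMC lines, a difference of 20.5 against a pooled SD between lines of 8.73 (exact permutation test, two-sided, p = 0.33). The difference was 31 in line pair 1 and 10 in line pair 2, and it was 12 without SMC line 1. Between libraries of like background the counts were 5 against 32 and 22 against 36. Of all 21938 protein-coding genes, 15.0% had non-overlapping flank counts with the non-SMC lines higher and 12.6% with the SMC lines higher. Per 10000 peaks of its list, SMC lines 1 and 2 had 0.549 and 1.43 flank peaks and non-SMC lines 1 and 2 had 3.11 and 2.49, again without overlap. On that scale 21.4% of genes were higher in both non-SMC lines and 21% (4617 of 21938) in both SMC lines.

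The excess was mainly on the downstream side, where the neighboring genes are *Tm4sf4* and *Tm4sf1*. That flank held 1 peak in SMC line 1, 15 in SMC line 2 and 24 in each non-SMC line. The upstream flank held 4, 7, 12 and 8 peaks in the same order. The groups did not overlap on either side. Their means differed by 16 peaks downstream and 4.5 upstream (exact permutation test, two-sided, p = 0.33 each). The nearest libraries of the 2 types had 15 and 24 peaks downstream but 7 and 8 upstream. The difference between the sides was not tested, and the share of all genes with such an order on 1 side was not counted. In the 50 kb next to the 3′ end of *Wwtr1* SMC line 1 had 0 peaks, SMC line 2 had 4 and each non-SMC line had 9.

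The ratio between the types was larger among the *Wwtr1* peaks with stronger evidence. A q-value up to 0.05 was met by 2 and 6 peaks in SMC lines 1 and 2 and by 28 and 18 in non-SMC lines 1 and 2. With -log10 q of at least 5 there were 2, 3, 14 and 9. Over all genes, however, stricter filters favored the non-SMC lines, and 35.5% and 47.7% of genes then had higher counts in both of them. Peaks covered 1.98 and 5.15 kb of the 494 kb of flank in SMC lines 1 and 2 and 13.5 and 10.8 kb in non-SMC lines 1 and 2. Over the whole lists the median peak was also wider in non-SMC lines 1 and 2, at 246 and 203 bp. In SMC lines 1 and 2 it was 180 and 178 bp wide. The covered length was not compared with that of other genes.

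**Figure D1:**
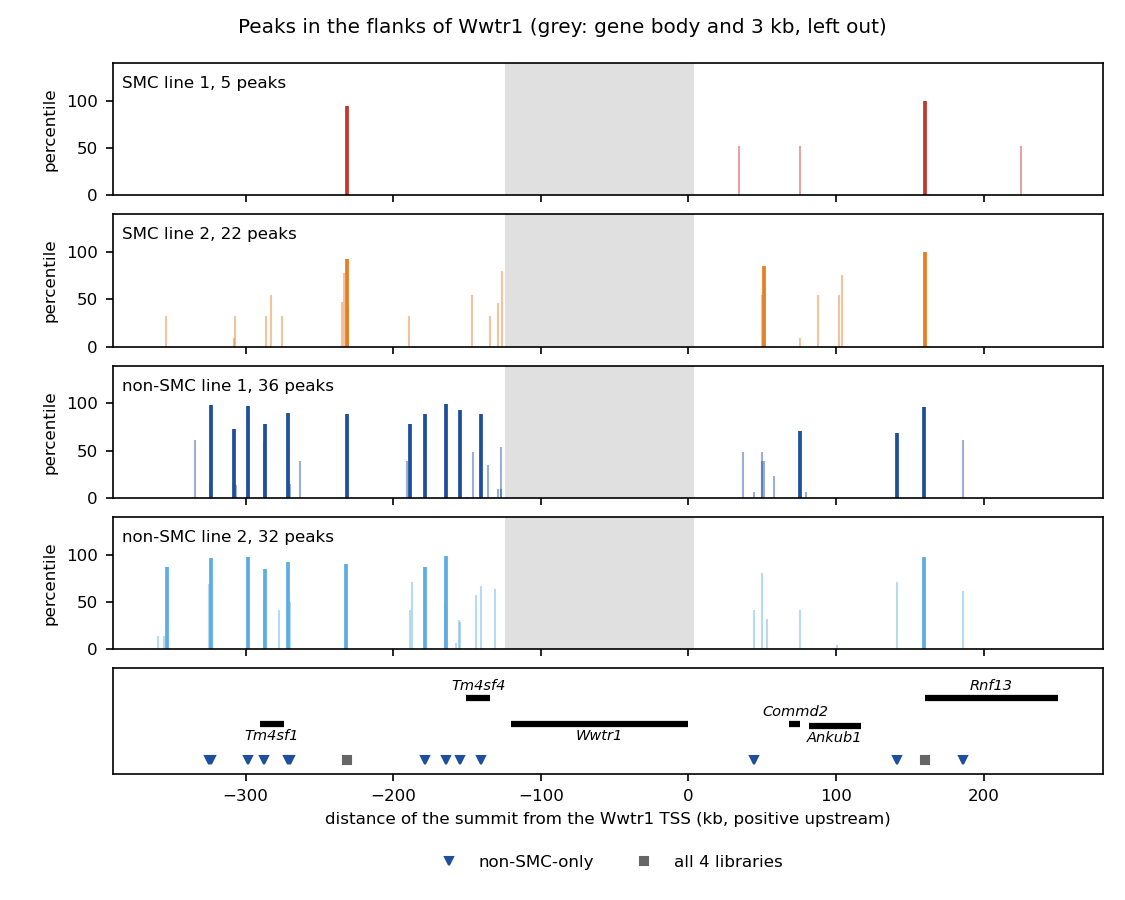
Peaks in the flanks of *Wwtr1* by library. The x axis gives the distance of the summit from the TSS in kb (positive upstream) and each line is a peak whose height is its percentile of fold enrichment in its own list, drawn thick and dark with -log10 q of at least 5; the lowest panel shows genes as bars (plus strand above) and regions by their sharing. The downstream side, on the left, holds 24 peaks in each non-SMC line against 1 and 15 in SMC lines 1 and 2.

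Of the 65 regions at *Wwtr1*, 13 (20.0%) were non-SMC-only, where 7.33% of all regions of the genome had that pattern. None was SMC-only (0 of 65, which allows a share of up to 4.62%, counting error only), against 4.37% of the genome. In 2 regions all 4 libraries had a peak (3.08%, against 3.81% of the genome). Peaks of non-SMC line 1 were also found in non-SMC line 2 in 19 of 36 cases and those of line 2 in line 1 in 18 of 32 cases. These shares of 52.8% and 56.3% compare with 41.9% and 38.7% over the whole lists. Of the peaks of SMC line 1, 2 of 5 (40.0%) were found in SMC line 2, close to the 40.7% of the whole list. The other way it was 2 of 22 (9.09%), below the 23.8% of the whole list. The only 2 regions that both SMC lines had were open in all 4 libraries. Most regions were private to 1 library (43 of 65, 66.2%, against 76.9% of the genome).

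Of the 13 non-SMC-only regions, 10 lay downstream of *Wwtr1*. The strongest, chr3:57411383-57412227, lay 164 kb from the *Wwtr1* TSS and 13484 bp upstream of *Tm4sf4*, a gene of a small cell-surface protein. It had a fold enrichment of 16.3 in non-SMC line 1 (percentile 99.0) and 12.2 in non-SMC line 2 (98.2), from 75 and 26 fragments. Its summits lay 76 bp apart. It was thus among the strongest peaks of both lists although no SMC line had a peak there.

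Several of these regions surrounded *Tm4sf1*, a gene of the same family, known as a surface antigen of tumor and endothelial cells. At chr3:57277317-57277873 the percentiles were 97.4 and 97.6 in non-SMC lines 1 and 2, and the summits lay 7 bp apart. At chr3:57252572-57253318, also beyond the 3′ end of *Tm4sf1*, they were 97.9 and 96.1. Near its promoter, chr3:57303636-57305364 reached percentiles of 89.7 and 92.1. The summit of non-SMC line 2, the higher by percentile but not by fold enrichment, lay 2791 bp upstream of the TSS. SMC line 1 had 0 peaks in the 6 kb around that TSS and SMC line 2 had 1, at percentile 32.1. Nearer to *Wwtr1*, chr3:57397491-57397813 had percentiles of 89.1 and 87.1, and chr3:57435399-57436087 in an intron of *Tm4sf4* had 88.3 and 67.0. The other 7 were weaker, with mean percentiles of 24.1 to 69.5.

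The 2 regions shared by all libraries at *Wwtr1* were strong in all. At the promoter of *Rnf13*, an endosomal ubiquitin ligase, chr3:57735459-57736436 had percentiles of 99.3 and 99.7 in SMC lines 1 and 2 and 96.1 and 97.0 in non-SMC lines 1 and 2. The distal chr3:57343979-57344787, 231 kb downstream of the *Wwtr1* TSS, had 94.9 and 93.0 in the SMC lines and 89.2 and 90.6 in the non-SMC lines. It was the only downstream peak of SMC line 1, so that flank was not without signal in this library.

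The flanks of *Yap1* gave no such separation in the number of peaks. There were 6 peaks in SMC line 1 and 21 in line 2, and 45 in non-SMC line 1 and 19 in line 2. Non-SMC line 2 thus lay below SMC line 2, and non-SMC line 1 stood apart from the other 3 libraries. The means were 32 ± 18.4 (SD, n = 2) in non-SMC and 13.5 ± 10.6 in SMC lines, a difference of 18.5 against a pooled SD of 15.0 (exact permutation test, two-sided, p = 0.667). The difference was 39 in line pair 1 and -2 in line pair 2, 5.5 without non-SMC line 1, 31.5 without non-SMC line 2 and 11 without SMC line 1. Between libraries of like background the counts were 6 against 19 and 21 against 45. Per 10000 peaks the values were 0.659, 1.36, 3.88 and 1.48, so that the groups were apart, with non-SMC line 2 only 0.112 above SMC line 2. Of all genes, 21.4% had the same order on that scale and 21% (4617 of 21938) the opposite one.

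Peaks that passed the strictest thresholds did not separate the types at *Yap1*. With -log10 q of at least 5 there were 4 and 7 in SMC lines 1 and 2 and 9 and 5 in non-SMC lines 1 and 2. In the top 10% of their own lists lay 4, 6, 6 and 5 peaks. The surplus of non-SMC line 1 lay mainly below these thresholds, and 32 of the 69 regions were private to it. A q-value up to 0.05 was met by 5 and 8 peaks in SMC lines 1 and 2 and 34 and 12 in non-SMC lines. These counts did not overlap, and 35.5% of all genes had the same order. Lists cut to the same number of top peaks gave 6, 13, 35 and 14, an order that 21.4% of genes had. The downstream flank held 2 and 10 peaks in SMC lines 1 and 2 and 31 and 12 in non-SMC lines 1 and 2, and the upstream flank 4, 11, 14 and 7.

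**Figure D2:**
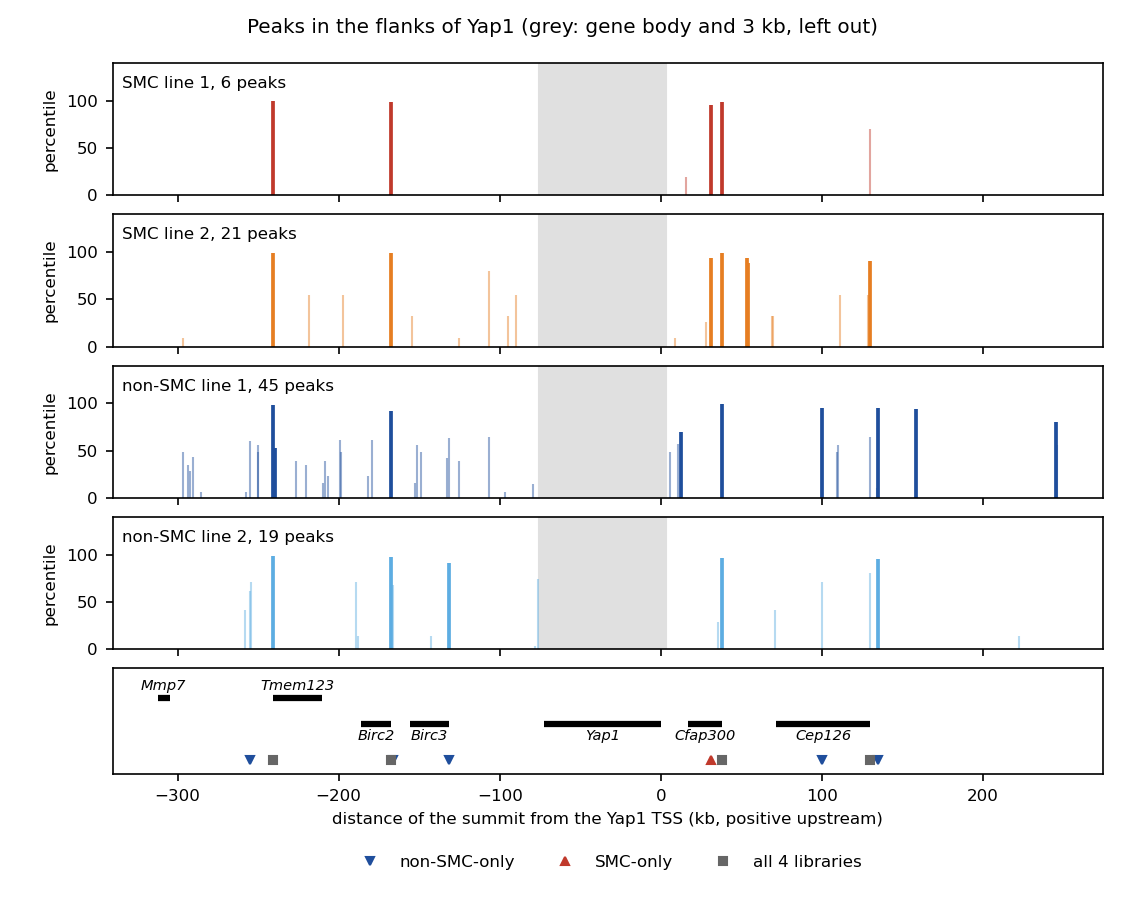
Peaks in the flanks of *Yap1* by library. The x axis gives the distance of the summit from the TSS in kb (positive upstream) and each line is a peak whose height is its percentile of fold enrichment in its own list, drawn thick and dark with -log10 q of at least 5; the lowest panel shows genes as bars (plus strand above) and regions by their sharing. The tall lines common to all 4 panels are neighboring promoters, and non-SMC line 1 adds many lower ones, with 45 peaks in all.

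**Figure D3:**
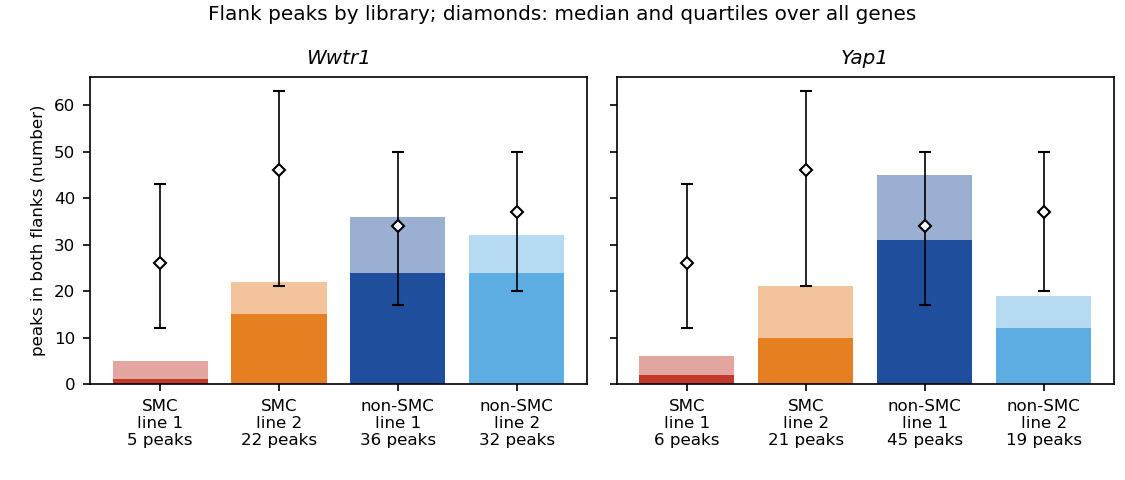
Number of flank peaks in each library at *Wwtr1* and *Yap1*, with the downstream flank as the dark and the upstream flank as the light part of the bar. Diamonds and whiskers give the median and quartiles over 21938 protein-coding genes. Both SMC lines lie below the median at both genes, with 5 and 22 peaks at *Wwtr1* and 6 and 21 at *Yap1*. Non-SMC line 2 also does, with 32 at *Wwtr1* and 19 at *Yap1* against a median of 37, while non-SMC line 1 lies above its median at both.

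Of the 69 regions at *Yap1*, 5 (7.25%) were non-SMC-only, close to the 7.33% of the genome. The strongest, chr9:8139438-8139750, lay 5381 bp upstream of *Cep126*, a gene of a centrosome protein, and 135 kb upstream of *Yap1*. Its fold enrichment was 12.5 in non-SMC line 1 (percentile 95.2) and 9.76 in non-SMC line 2 (95.4), with summits 35 bp apart. In an intron of *Cep126*, chr9:8104129-8104778 had percentiles of 94.8 and 70.7. *Birc3*, an inhibitor of apoptosis in the NF-kB pathway, had such a region at chr9:7872779-7873232, its summit 130 bp downstream of the TSS, with percentiles of 63.4 and 90.9. The remaining 2 were weak in at least 1 line, chr9:7749636-7749849 with percentiles of 59.9 and 61.1 and chr9:7838056-7838506 near the TSS of *Birc2* with 0.0742 and 68.3.

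The SMC-only region was the single one of either locus. At chr9:8035238-8035934 in an intron of *Cfap300*, a gene of ciliary dynein assembly, it lay 31.2 kb upstream of the *Yap1* TSS. Its fold enrichment was 8.66 in SMC line 1 (percentile 95.6) and 7.32 in SMC line 2 (93.4), from 12 and 19 fragments, with summits 66 bp apart. It was 1 of 69 regions (1.45%, against 4.37% of the genome). The peak of SMC line 1 was much the shorter, so the region was not counted as shared when an overlap of 50% of both peaks was required.

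All 4 regions of *Yap1* that every library had were promoters (5.80%, against 3.81% of the genome). For *Tmem123*, a surface protein gene, chr9:7763566-7764925 had percentiles of 99.3 and 99.3 in SMC lines 1 and 2 and 98.4 and 98.5 in non-SMC lines 1 and 2. For *Birc2*, the paralog of *Birc3*, chr9:7836378-7837463 had 98.3, 99.4, 91.9 and 97.7 in the same order. For *Cfap300*, chr9:8042231-8043136 had 98.7, 99.4, 99.1 and 96.9, and for *Cep126*, chr9:8134255-8134906 had 70.0, 90.5, 64.8 and 80.9. Of the peaks of SMC line 1 at this locus, 5 of 6 (83.3%, against 40.7% of the whole list) were found in SMC line 2, namely the 4 promoters and the SMC-only region. The other way it was 5 of 21, and this 23.8% equals the share of the whole list.

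**Figure D4:**
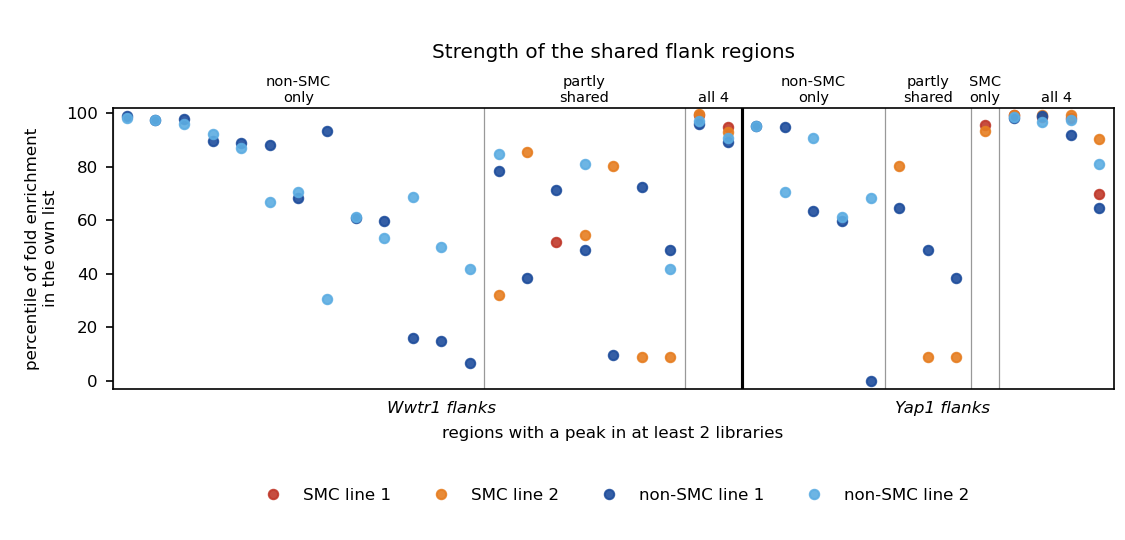
Strength of the flank regions that had a peak in at least 2 libraries. Each point is the highest peak of a library in that region, on the y axis as its percentile of fold enrichment in its own list, and regions are ordered along the x axis by locus, sharing and mean percentile. The 13 non-SMC-only regions of *Wwtr1* run from mean percentiles of 98.6 down to 24.1, and the regions of all 4 libraries from 98.9 down to 76.5.

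The 18 non-SMC-only regions of both loci were compared between the lines that had them. Their summits lay a median of 29.5 bp apart (1 to 326 bp), and 13 of 18 pairs lay within 100 bp. Both lines reached -log10 q of at least 5 in 6 of them, 5 at *Wwtr1* and 1 at *Yap1*, and neither line did in 7. Of the 18, 3 lay within 3 kb of a TSS, against 5 of the 6 shared by all libraries. Their median width was 394 bp, against 942 bp for those shared by all and 177 bp for those of other patterns. Joining peaks of several libraries widens a region, and the required overlap limits the distance of summits, so both follow in part from the definition.

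Typical strength did not separate the types. At *Wwtr1* the median percentile of the flank peaks was 52.0 and 50.9 in SMC lines 1 and 2 and 51.7 and 59.2 in non-SMC lines 1 and 2. At *Yap1* it was 97.0, 54.6, 49.0 and 70.7 in the same order. The high value of SMC line 1 rested on 6 peaks, 3 of them promoters at percentiles of 98.3 to 99.3. The groups overlapped at both genes (exact permutation test, two-sided, p = 0.667 each). At *Wwtr1* the top 10% of the lists took in 2 flank peaks in each SMC line and 5 and 6 in non-SMC lines 1 and 2. How many of all genes separate at this cut was not counted. With -log10 q of at least 5, 47.7% of genes had higher counts in both non-SMC lines.

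The neighbors of *Wwtr1* were *Tm4sf1* and *Tm4sf4* downstream and *Commd2*, *Ankub1* and *Rnf13* upstream. *Tm4sf1* was the nearest gene of 6 of the 13 non-SMC-only regions, *Tm4sf4* of 4, *Rnf13* of 2 and *Commd2* of 1. No non-SMC-only region had *Wwtr1* itself as the nearest gene, but the rule left little room for it. The nearest gene was taken by TSS and the gene body was left out. Every place in the downstream flank is therefore nearer to the TSS of another gene. Only 2 regions of any pattern, both upstream, had *Wwtr1* as the nearest gene. Peaks nearest to *Tm4sf4* numbered 0 in SMC line 1, 5 in SMC line 2 and 12 in each non-SMC line, and those nearest to *Tm4sf1* numbered 1, 10, 12 and 12. Upstream, *Commd2*, a gene of the COMM domain family, had 1, 4, 8 and 4. *Pfn2*, the gene of an actin-binding profilin just outside the flank, was nearest to 1 region.

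At *Yap1* the flanks held *Mmp7*, *Tmem123*, *Birc2* and *Birc3* downstream and *Cfap300* and *Cep126* upstream. *Cep126* was the nearest gene of 2 non-SMC-only regions and *Tmem123*, *Birc2* and *Birc3* of 1 each. *Birc3* had promoter peaks in both non-SMC lines, 2 and 1, and in neither SMC line. *Mmp7*, the gene of the protease matrilysin, had 0 promoter peaks in every library, and non-SMC line 1 held 5 of the 6 peaks nearest to it. The upstream gene *Cfap300* was nearest to 2 and 7 peaks in SMC lines 1 and 2 and to 1 and 3 in non-SMC lines 1 and 2.

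Against other genes, the flanks of *Wwtr1* and *Yap1* were poor in peaks in the SMC lines. The median gene had 26 and 46 flank peaks in SMC lines 1 and 2 and 34 and 37 in non-SMC lines 1 and 2. *Wwtr1* was at percentiles 13.3 and 25.5 of all genes in SMC lines 1 and 2 and 53.4 and 41.6 in non-SMC lines 1 and 2. *Yap1* was at 14.8 and 24.7 in the SMC lines and 67.1 and 23.9 in the non-SMC lines. In the non-SMC lines *Wwtr1* was thus near the median gene, whereas *Yap1* was above it in line 1 and below it in line 2.

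The difference between the types was 0 for the median gene (quartiles -7 and 5.5). That of *Wwtr1*, 20.5, was at percentile 97.4 of all genes and that of *Yap1*, 18.5, at 96.5. Genes that lie side by side share flanks, so these percentiles are a description. They fell to 78.3 and 28.7 when peaks with -log10 q of at least 5 were counted. The local background under the flank peaks was at most 4.60 times the genome-wide background of the library, with medians of 1 to 1.31 times.

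**Figure D5:**
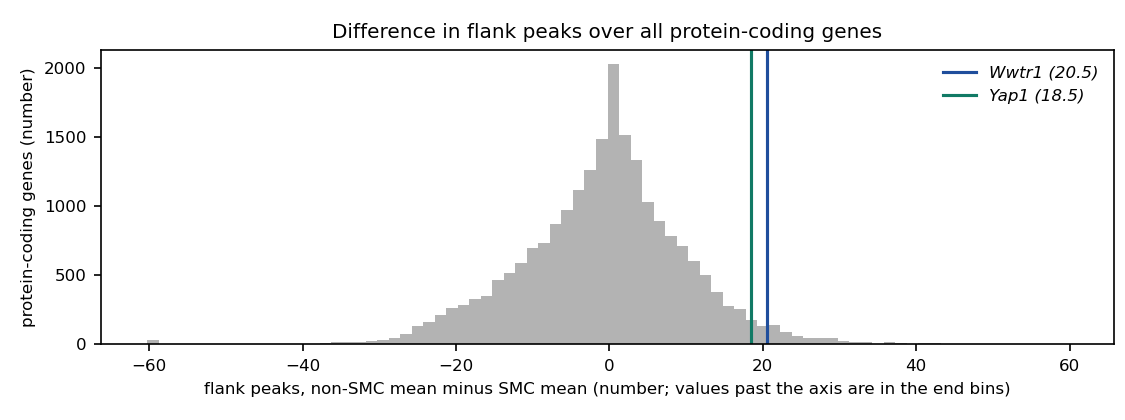
Distribution over 21938 protein-coding genes of the number of flank peaks, non-SMC mean minus SMC mean (x axis, number of peaks), with the number of genes in each bin on the y axis. Vertical lines mark *Wwtr1* at 20.5 and *Yap1* at 18.5, both in the right tail of a distribution with a median of 0.

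Of 22 other genes of the Hippo pathway, 4 (18.2%, against 15.0% of all genes) had flank counts that were higher in both non-SMC lines, 1 (4.55%, against 12.6%) had the opposite and 17 overlapped. Per 10000 peaks of the list, 4 were higher in the non-SMC lines (18.2%, against 21.4% of all genes). On that scale 4 were higher in the SMC lines (18.2%, against 21% of all genes, 4617 of 21938). The latter were *Sav1*, *Lats1*, *Amotl1* and *Amot*, listed after their values were seen. The median difference of the 22 genes in flank peaks was 0, as for all genes. *Ccn1*, a target gene of TAZ and YAP that encodes a matrix protein, had 20 and 42 flank peaks in SMC lines 1 and 2 and 48 and 50 in non-SMC lines 1 and 2. The target gene *Ankrd1* had 11, 14, 36 and 24. *Mob1b*, a partner of the LATS kinases, had 27, 35, 38 and 52 and *Vgll3*, a TEAD cofactor, 7, 8, 11 and 11. *Amot*, which holds TAZ and YAP in the cytoplasm, was the one with higher flank counts in both SMC lines before that scaling, with 11, 9, 4 and 3. The 4 TEAD factors all overlapped.

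The gene bodies, with 3 kb on each side, differed from the flanks in density. At *Wwtr1* the body had 0.792 and 3.17 peaks per 100 kb in SMC lines 1 and 2 and 14.3 and 13.5 in non-SMC lines 1 and 2. The flanks had 1.01 and 4.45 against 7.29 and 6.48. In the SMC lines the body was thus the sparser and in the non-SMC lines the denser of the 2. The *Wwtr1* body held only 1 and 4 peaks in SMC lines 1 and 2, against 18 and 17 in non-SMC lines 1 and 2. At *Yap1* the body had 1.27, 5.09, 16.5 and 5.09 peaks per 100 kb and the flanks 1.21, 4.25, 9.11 and 3.85, the body being the denser in every library. These body values came from 1, 4, 13 and 4 peaks, so the order in SMC line 1 hung on 1 peak. The flanks held 83.3% and 84.6% of the peaks of the whole *Wwtr1* interval in SMC lines 1 and 2 and 66.7% and 65.3% in non-SMC lines 1 and 2. No test was made of these ratios.

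The letters around the summits of the 13 non-SMC-only regions of *Wwtr1* are set beside those of the genome as a description, and no difference was tested. TGAGTCA was found in 3 of 13 (23.1%), against 46.5% of the 26224 non-SMC-only regions and 11.2% of all regions. A RUNX motif was found in 7 of 13 (53.8%), against 31.5% and 20.4%, among them the regions printed above. GGAATG was found in 1 (7.69%), against 19.3% and 12.6%, in chr3:57397491-57397813, which also held TGAGTCA and CAGCTG. At *Yap1*, 0 of 5 non-SMC-only regions held TGAGTCA and 2 held GGAATG, those in the *Cep126* intron and near *Birc2*. A SOX motif was found in 7 of the 18 regions of both loci (38.9%), against 27.4% of the non-SMC-only regions of the genome and 26.7% of all. For CAGCTG the count was 5 (27.8%), against 14.0% and 13.7%, and for the NFI motif 4 (22.2%), against 16.2% and 12.8%. None of the 6 regions shared by all libraries held an AP-1, TEAD, E-box, SOX or NFI motif. In the genome 8.94%, 8.84%, 13.6%, 16.5% and 10.4% of such regions held them in the same order, so 0 of 6 is near these shares. A RUNX motif was found in 2 of the 6 (33.3%), against 17.0% of such regions in the genome.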

How the data were processed

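ATAC-seq was performed on 4 libraries, 2 SMC and 2 non-SMC lines. The authors mapped paired-end reads to mm10 with Bowtie2 2.3.4, took out duplicate reads with sambamba and ran MACS2 2.1.1 on each library by itself. The settings of the peak calling are not given in the sources used here, and read totals per library were not analysed here. The authors deposited for each peak the fold enrichment at the summit (a ratio of pileup to local background), the -log10 of its p-value, the -log10 of its q-value and the offset of the summit. These depend on depth, so strength was compared as a percentile within a list.

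Pileup and background were recovered from fold enrichment and p for at least 99.996% of the peaks of each list, as MACS2 adds 1 to both and takes p from a Poisson distribution. Only chromosomes 1 to 19, X and Y were kept. Peaks were joined into regions and placed by summit on the protein-coding genes of GENCODE M21. The chromosome ends of the lists were checked against GRCm38 (21 of 21 fitted), from which sequences were read and motifs searched within 100 bp of the highest summit. The same flank was counted for 21938 protein-coding genes. Means of 2 libraries were compared by exact permutation tests. The members, gene lists, motifs and tests were chosen with earlier results of these data known. Genes named are those whose body overlaps a flank, the nearest genes of named regions and the Hippo genes that did not overlap between types. Regions named are the 6 non-SMC-only, 6 SMC-only and 4 shared ones of highest mean percentile at each gene, fewer where fewer existed, and sequences those of the first of them outside UTRs. Alternatives were a q-value up to 0.05, -log10 q of at least 5, lists cut to the same 91057 top peaks, peaks within 3 kb of a TSS left out, a reciprocal overlap of 50%, each library left out and a mean within line pairs. The promoter of 1 marker gene is not reported here. The counting, overlap, recovery and motif steps were tested on simulated data. The analysis ran in Python 3.11.15 with pandas 2.3.3, numpy 2.4.6, scipy 1.17.1 and matplotlib 3.10.9, beside samtools 1.23.1 and bedtools 2.31.1.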

Additional observations from a re-analysis of the deposited data

Results flagged for a closer look

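At *Yap1* the 2 line pairs moved in opposite directions in the number of flank peaks, non-SMC minus SMC, by 39 in line pair 1 and by -2 in line pair 2. The median percentile of its flank peaks also did so, with -48.0 in line pair 1 and 16.1 in line pair 2. At *Wwtr1* the median percentile differed by -0.304 in line pair 1 and by 8.29 in line pair 2. These differences between line pairs were not tested, as a pair has no replicate. Pair 1 joins a shallow SMC library to a deep non-SMC one (background of 0.456 and 1.49 fragments). In pair 2 the depths are reversed (1.54 and 0.639). At *Yap1*, libraries of like background had 6 peaks (SMC) against 19 (non-SMC), and 21 against 45. Their median percentiles were 97.0 against 70.7 and 54.6 against 49.0, and at *Wwtr1* 52.0 against 59.2 and 50.9 against 51.7. The part of depth in the opposite directions was not tested.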

How the results depend on the processing

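Counts in single libraries limit every value here, and with 2 libraries per type the exact permutation test cannot go below 0.33. Of 94 alternative values, 73 kept the direction or, for numbers of regions, stayed within 1.5 times, and the cause of the others was not tested. The difference in peak number kept its sign at both genes under all alternatives tried, down to 9 at *Wwtr1* and 1.5 at *Yap1* with -log10 q of at least 5, and ranged from 12 to 29 and from 5.5 to 31.5 with 1 library left out. The difference in median percentile at *Wwtr1* (4.0) turned to -4.41 with -log10 q of at least 5, to -16.3 with a q-value up to 0.05 and to -0.140 without peaks near a TSS. At *Yap1* it (-15.9) ranged from -37.1 to 5.25 with 1 library left out and turned only without SMC line 1. Peaks per 10000 at *Yap1* (1.67) turned to -0.842 with -log10 q of at least 5. The 13 non-SMC-only regions of *Wwtr1* became 6, and the 5 of *Yap1* became 1, with -log10 q of at least 5, and the latter 3 without peaks near a TSS. The SMC-only region of *Yap1* was lost (0) with a reciprocal overlap of 50%. With 1 library left out, non-SMC-only regions ranged from 13 to 28 at *Wwtr1* (27 without non-SMC line 1 and 28 without line 2) and from 5 to 37 at *Yap1* (15 and 37). SMC-only regions ranged from 0 to 14 and from 1 to 14 (14 without SMC line 1 and 2 without line 2 at each gene), since fewer libraries then had to share a peak. A replicate block, the mean within the paired lines, cannot change a difference of group means with 2 lines per type. Peak number thus stayed at 20.5 and 18.5, and the differences in median percentile and in peaks per 10000 also stayed the same. These repeats are among the 73 values and are no evidence of stability. The block gave 30 and 28 non-SMC-only regions and 9.5 SMC-only regions at each gene, as 2 libraries make a pattern within a pair.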
